A study of Homo sapiens with 6 samples.

Results

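Developmental transcription factors outside the HOX clusters were examined for open chromatin in ARP1, a human line grown from multiple myeloma, the cancer of antibody-secreting plasma cells. The set was a fixed list of 57 lineage and homeobox factors among 20037 protein-coding genes, and all 57 had a RefSeq gene record. A merged region, made by joining peaks of the 6 lists that shared at least 1 bp, belonged to a factor when it touched the gene body or lay no more than 10 kb from either end. By this rule 68 of 75701 merged regions belonged to a factor, and 1 of them served both DLX1 and DLX2. ATAC-seq marks open DNA by the cuts of the transposase Tn5. It was run on 3 libraries from ARP1 cells with a KDM6A knockout and on 3 libraries from KDM6A wild-type cells, with no treatment named for either genotype. The labels call the 3 libraries of a genotype biological replicates and do not say whether they came from separate cultures or whether the knockout was 1 clone.

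The listed factors set up tissues of the embryo such as the brain, heart, kidney, limb and gut. In cells that do not need them their promoters, which are often rich in the dinucleotide CpG, are typical sites of polycomb repression, marked by methyl groups on lysine 27 of histone H3. KDM6A is an enzyme that removes this mark and also belongs to the KMT2C and KMT2D enhancer complexes.

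The knockout lists were shorter and their background was lower. Knockout lists held 33055 to 37314 peaks on the nuclear chromosomes and wild-type lists 54443 to 56048. The background pileup recovered from the deposited folds was 2.05 to 2.56 in the knockout and 3.11 to 3.77 in the wild type. The lowest fold that a list held was 3.09 to 3.31 in the knockout and 2.72 to 2.92 in the wild type, so a weak region could pass in a wild-type list alone. List length and background differed with genotype, and their part in the calls below cannot be told apart from it. The start of KDM6A itself carried a peak in all 6 lists (chromosome X, 44872212 to 44874149, mean fold 13.0 ± 1.86 for knockout lists and 11.0 ± 2.44 for wild-type lists, SD, n = 3), which does not check whether the coding sequence was edited. The plasma cell label was checked at promoter windows, which run from 250 bases before to 50 bases after a RefSeq start. SDC1, IRF4, PRDM1, XBP1, CD38 and MZB1 had a region of all 6 lists there, PAX5 of the B cell lineage had one in 5 lists, and CD3D, CD2, CD14, CSF1R, PDGFRB and KLF1 of other lineages had none in any list. Within 10 kb of a gene the contrast was smaller: all 8 plasma cell markers had a region of all 6 lists, but so did markers of other lineages such as CD3E, CD2, CD14, LYZ, COL1A1, PDGFRB, PECAM1, CDH5 and KLF1. Whether an open gene was transcribed was not measured here.

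Most promoters of the listed factors that could be examined held no peak. Promoter sequences were given for 40 of the 57 factors, with 60 windows between them. In 29 of the 40 (72.5%) no window touched a region of any list, against 36.5% of all protein-coding genes with a sequence. Another 10 (LHX4, LHX9, PAX2, SIX2, TBX1, FOXC1, NEUROG2, DLX2, DLX6 and MSX1) had a window in a region of all 6 lists, compared with 57.8% of the 15842 protein-coding genes with a sequence. The remaining factor, NKX2-1 of lung and thyroid, had a window in a region of 1 wild-type list. CpG content was measured as the observed number of CpG over the number expected from the C and G content. Its median was 0.76 over the 48 factor windows in no list, 0.33 over all 9112 windows of protein-coding genes in no list and 0.85 over all 11850 windows in regions of all 6 lists. Among windows with a value above 0.6, 34 of 45 of the factors (75.6%) were in no list, and 2622 of 13781 of all genes (19.0%). The 45 factor windows came from 36 factors and the 13781 windows from 11125 genes. Some genes thus count more than once, and these shares are descriptions.

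**Figure D1:**
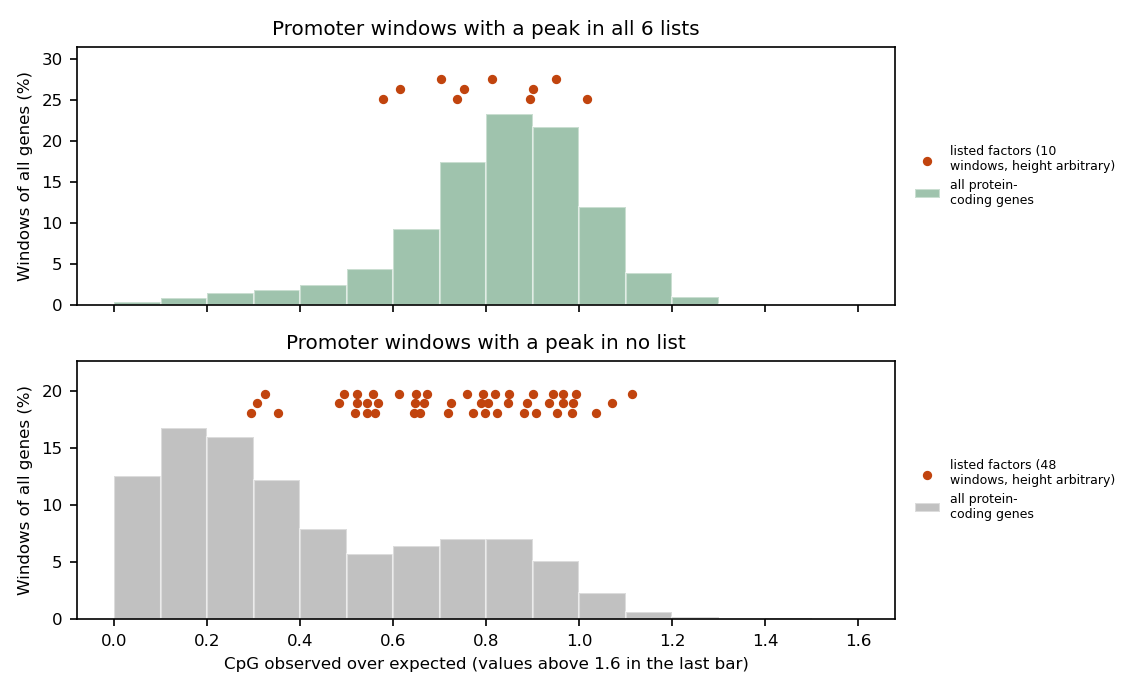
Promoter windows (300 bases) with a merged region of all 6 lists (top) and of no list (bottom), by CpG observed over expected. Bars give the percentage of windows of all protein-coding genes, and points are windows of the listed factors, whose height has no meaning. The 48 factor windows without a peak have a median of 0.76, and the grey bars a median of 0.33.

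The 250 bases before the start are shown for 4 factors with a promoter peak (LHX9, with its 2 starts, FOXC1, MSX1 and NEUROG2) and for 2 closed factors (NEUROD1 and EN2), so that stretches with and without a peak can be read side by side. Capitals mark each CpG, and sequences are RefSeq, GRCh38.p14, 5′ to 3′ on the strand of the gene.
LHX9 upstream start: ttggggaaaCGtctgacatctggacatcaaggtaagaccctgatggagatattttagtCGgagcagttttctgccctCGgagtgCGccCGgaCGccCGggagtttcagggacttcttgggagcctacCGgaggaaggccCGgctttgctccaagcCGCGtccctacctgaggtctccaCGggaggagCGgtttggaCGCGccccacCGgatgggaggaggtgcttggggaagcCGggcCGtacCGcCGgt
LHX9 downstream start: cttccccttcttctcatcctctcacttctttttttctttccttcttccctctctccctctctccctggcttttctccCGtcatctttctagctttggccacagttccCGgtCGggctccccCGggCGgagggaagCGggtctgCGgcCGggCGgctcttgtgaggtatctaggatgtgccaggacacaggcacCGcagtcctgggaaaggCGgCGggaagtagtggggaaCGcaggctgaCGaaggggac
FOXC1: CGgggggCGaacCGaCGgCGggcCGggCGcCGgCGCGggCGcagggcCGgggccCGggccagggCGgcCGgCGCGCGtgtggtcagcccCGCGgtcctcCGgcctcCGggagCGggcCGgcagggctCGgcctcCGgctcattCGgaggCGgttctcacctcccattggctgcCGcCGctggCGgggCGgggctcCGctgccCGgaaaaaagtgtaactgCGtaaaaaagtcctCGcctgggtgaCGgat
MSX1: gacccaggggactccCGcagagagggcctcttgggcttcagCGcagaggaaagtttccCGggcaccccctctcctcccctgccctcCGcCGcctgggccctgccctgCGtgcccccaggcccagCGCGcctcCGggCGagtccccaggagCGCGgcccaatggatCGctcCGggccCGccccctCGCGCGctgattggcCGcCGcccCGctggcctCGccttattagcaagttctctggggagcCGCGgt
NEUROG2: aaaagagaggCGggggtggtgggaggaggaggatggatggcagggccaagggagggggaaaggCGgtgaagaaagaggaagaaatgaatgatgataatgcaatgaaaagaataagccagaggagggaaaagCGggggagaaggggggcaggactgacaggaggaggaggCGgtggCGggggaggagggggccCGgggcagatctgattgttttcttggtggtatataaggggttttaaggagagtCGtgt
NEUROD1: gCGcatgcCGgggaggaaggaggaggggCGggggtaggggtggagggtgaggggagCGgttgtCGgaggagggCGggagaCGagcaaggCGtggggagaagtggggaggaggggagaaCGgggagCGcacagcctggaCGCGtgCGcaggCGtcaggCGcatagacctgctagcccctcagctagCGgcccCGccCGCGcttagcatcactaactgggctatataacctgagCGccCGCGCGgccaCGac
EN2: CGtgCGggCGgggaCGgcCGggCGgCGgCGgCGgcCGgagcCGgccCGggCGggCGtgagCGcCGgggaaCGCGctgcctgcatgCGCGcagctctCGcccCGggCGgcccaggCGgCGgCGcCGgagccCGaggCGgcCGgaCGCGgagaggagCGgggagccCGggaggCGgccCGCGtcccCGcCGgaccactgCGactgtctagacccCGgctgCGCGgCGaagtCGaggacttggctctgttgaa
The LHX9 windows lie on chromosome 1 at 197912214 to 197912463 and at 197915824 to 197916073, plus strand. FOXC1 lies on chromosome 6 at 1609665 to 1609914 and MSX1 on chromosome 4 at 4859415 to 4859664, both plus strand. NEUROG2 lies on chromosome 4 at 112516181 to 112516430 and NEUROD1 on chromosome 2 at 181680518 to 181680767, both minus strand. EN2 lies on chromosome 7 at 155457879 to 155458128, plus strand. The stretch before EN2, in no list, holds 45 CpG and that before NEUROD1, also in no list, 24. Among those within a region of all 6 lists, the stretch before FOXC1 holds 37, that before MSX1 24 and that before NEUROG2 7. The upstream LHX9 start, with 20 CpG, lay in a region of the 3 wild-type lists alone. The downstream LHX9 start, with 14, lay in a region of all 6. Promoter windows also reach past the start. Over those of the listed factors the median CpG count was 29.5 for the 10 in regions of all 6 lists. It was 21 for the 48 in no list. The stretches shown include extremes: EN2, with 50, had the most of the 48. Among the 10, FOXC1 had the most, 40, and NEUROG2 the fewest, 10.

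Fewer of the listed factors were open than of protein-coding genes in general. A gene was called open when at least 1 of its regions was in all 6 lists, partly called when it had regions but none in all 6, and closed when no list had any. Open factors numbered 20, against 70.2% of all protein-coding genes, partly called factors 14, against 14.6%, and closed factors 23, against 15.2%. In percentages the factors came to 35.1%, 24.6% and 40.4%. The factors are short, with a median gene length of 7.31 kb against 24.1 kb, so their windows could hold fewer regions. Per 100 kb of window they had 2.89 regions and all protein-coding genes 3.29. Of 62 relatives of the same families that are not on the list, 30 were open (48.4%), 11 partly called and 21 closed, and they had 2.52 regions per 100 kb of window. The open relatives included ISL1, ISL2, PAX5, SIX4, SIX5, NKX1-1, NKX3-2, TBX6, TBX10, TBX19, EOMES, MGA, GATA1, GATA3, SOX4, SOX5, SOX6, SOX11, SOX12, SOX15, SOX18, SOX30, FOXA3, FOXC2, FOXD1, FOXD2, OLIG1, DLX4 and OTX1. PAX5 and GATA3 among them are known regulators of B and T lymphocytes.

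**Figure D2:**
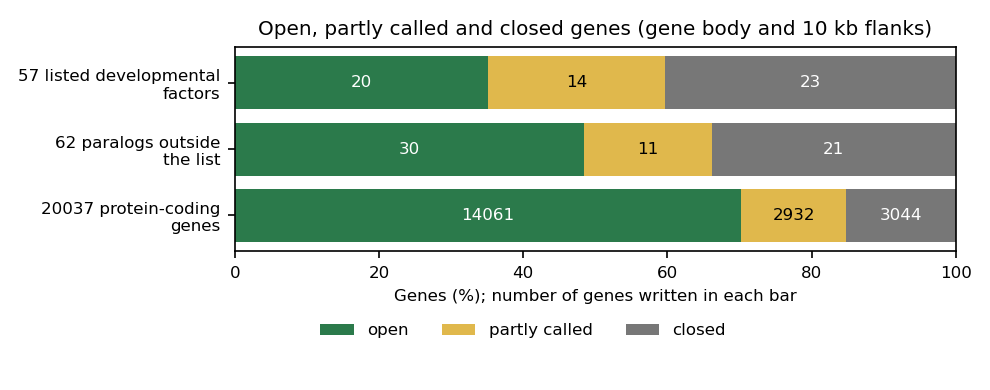
Share of genes that were open, partly called or closed, for the 57 listed factors, 62 relatives outside the list and all 20037 protein-coding genes, with the number of genes written in each bar. The closed part is 40.4% of the listed factors and 15.2% of all genes.

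Each list held regions at fewer factors in the knockout than in the wild type. Of the 57 factors 22, 27 and 25 had at least 1 region in knockout replicates 1, 2 and 3, and 30, 31 and 31 in wild-type replicates 1, 2 and 3. Of all protein-coding genes 74.0%, 76.0% and 75.2% had one in the knockout lists and 80.3%, 81.3% and 80.6% in the wild-type lists. The knockout mean was thus 80.4% of the wild-type mean over the factors and 93.0% over all protein-coding genes. These counts of genes depend on how many regions a window can hold. The median window was 27.3 kb at the factors and 44.1 kb over all protein-coding genes. What part this has in the 2 percentages was not tested. Regions of the factors numbered 30, 40 and 34 in the knockout lists (mean 34.7 ± 5.03, SD, n = 3) and 56, 55 and 56 in the wild-type lists (55.7 ± 0.58), with no overlap between genotypes. The knockout mean of regions was 62.3% of the wild-type mean. Over all regions within 10 kb of a protein-coding gene it was 68.1%, and over all merged regions 62.8%. With every list shortened to its strongest 33055 peaks the factor means were 33.3 and 40.7. The means over all regions were not taken at that length.

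**Figure D3:**
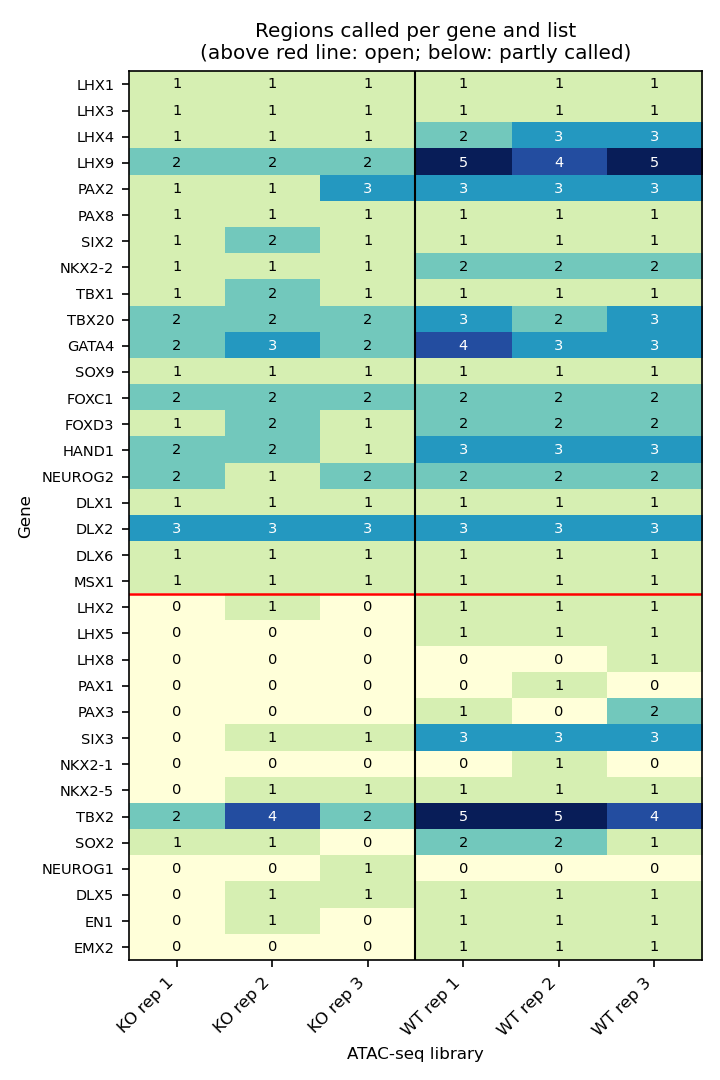
Number of regions called at each open (above the red line) or partly called (below it) factor in each of the 6 lists, knockout (KO) replicates on the left and wild-type (WT) replicates on the right. Zeros gather at the partly called factors in the knockout columns, and the 23 closed factors, with 0 in every list, are left out.

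Among the LIM homeobox genes 4 of 8 were open. LHX3 and LHX4, which act in the pituitary and in motor neurons, and LHX1, a regulator of kidney and head formation, each had 1 region of all 6 lists. Positions are given by coordinate, so that above a gene means at higher coordinates and below it at lower ones, whatever its strand. The LHX4 region, inside the gene record and over a promoter window (chromosome 1, 180228954 to 180232292), had folds of 12.6, 12.1 and 14.0 in knockout replicates 1 to 3 and of 10.7, 14.3 and 11.5 in wild-type replicates 1 to 3. LHX4 was thus about equally strong in both genotypes, and the groups overlapped. The LHX1 region (chromosome 17, 36948281 to 36949715), 3669 bp above the gene and within 1 kb of AATF, had folds of 10.2, 10.8 and 13.2 in the knockout and 12.4, 11.9 and 10.3 in the wild type, again with overlap. LHX3 had its region 1462 bp above the gene and within 1 kb of QSOX2 (chromosome 9, 136206590 to 136207722), with folds of 10.8, 13.1 and 8.98 in the knockout and 16.2, 15.1 and 14.0 in the wild type. There every knockout value was below every wild-type value, as at 43.9% of all 23589 regions of all 6 lists. Such orders are given for the deposited folds, without scaling for the list. Neither the LHX1 nor the LHX3 gene body had a region in any list.

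LHX9, which acts in gonad formation, was the factor with the highest fold. Its region 8752 bp below the gene (chromosome 1, 197902018 to 197903712), within 1 kb of C1orf53, had folds of 22.3, 29.2 and 25.8 in the knockout and 35.7, 43.5 and 37.3 in the wild type, with no overlap. A second region of all 6 lists covered the downstream start (197915327 to 197917600), with mean folds of 5.02 ± 0.73 for knockout and 9.57 ± 2.58 for wild-type lists (SD, n = 3), again without overlap. The upstream LHX9 start had a region of the wild-type lists alone (197911528 to 197912659), with folds of 5.98, 5.10 and 6.50. Of the other LIM genes LHX5 and LHX2, both of the forebrain, and LHX8 were partly called, LHX8 in a single wild-type list, and LHX6, a factor of cortical interneurons, was closed.

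Of 7 PAX genes 2 were open, and both belong to the kidney. PAX2 had a region over a start inside its gene record (chromosome 10, 100743579 to 100746497) with folds of 7.82, 7.87 and 10.1 in the knockout and 9.82, 13.9 and 9.85 in the wild type. The groups overlapped at PAX2. PAX8, also a thyroid factor, had a region inside the gene and within 1 kb of PAX8-AS1 (chromosome 2, 113235104 to 113236155), 43292 bp from its nearest given start, with folds of 8.13, 4.59 and 5.05 in the knockout and 5.77, 6.81 and 7.12 in the wild type. PAX8 thus had its highest value in a knockout list. PAX1 was partly called through 1 wild-type list and PAX3 through 2, while PAX6 of the eye, PAX7 of muscle and PAX9 were closed.

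SIX2, which maintains kidney progenitors, was the open one of 3 genes of the sine oculis homeobox family. Its region over the start (chromosome 2, 45008098 to 45010496) had folds of 7.22, 10.5 and 6.17 in the knockout and 6.83, 9.48 and 10.7 in the wild type, which overlapped. SIX3, a factor of the eye and forebrain, had 3 regions in every wild-type list and 0, 1 and 1 in the knockout lists. SIX6, its close relative, was closed.

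NKX2-2, a factor of pancreatic islets and of the ventral neural tube, was the open one of 5 NKX genes. Its region lay 6950 bp below the gene (chromosome 20, 21502831 to 21504067) with folds of 9.63, 13.4 and 11.5 in the knockout and 14.3, 19.7 and 14.0 in the wild type, the knockout wholly below. The promoter windows of NKX2-2 were in no list. NKX2-5, the heart factor, had a region over its upper-coordinate end (chromosome 5, 173234587 to 173236008) in 3 wild-type and 2 knockout lists. NKX6-1 and NKX6-2 were closed.

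TBX1 and TBX20 were the open T-box genes among 7. TBX1, the pharyngeal and cardiac outflow factor of the 22q11 deletion, had a region over its start (chromosome 22, 19756506 to 19757982) with folds of 6.02, 7.54 and 6.73 in the knockout and 3.63, 6.81 and 3.14 in the wild type. It had the highest ratio of mean knockout to mean wild-type fold among the regions of all 6 lists, 1.49, though wild-type replicate 2 fell among the knockout values. TBX20 of the heart had 2 regions inside the gene, away from its given start. At the one with the higher fold (chromosome 7, 35232460 to 35233742) the values were 9.03, 8.52 and 7.58 in the knockout and 12.2, 12.9 and 17.2 in the wild type. The other TBX20 region (35215708 to 35216525) had 7.67 ± 0.47 and 13.1 ± 2.35 (SD, n = 3), and at both the knockout lay wholly below. TBX2, a repressor of the limb and heart, had 6 regions, of which none was in all 6 lists: it held 2, 4 and 2 of them in the knockout lists and 5, 5 and 4 in the wild-type lists. TBX3, TBX4, TBX5 and TBX15, the limb and skeletal relatives, were closed.

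GATA4, which directs heart and endoderm development, was open and GATA6 closed. The GATA4 region with the highest fold lay 9043 bp above the gene and within 1 kb of NEIL2 (chromosome 8, 11769045 to 11770965), with folds of 12.3, 16.1 and 16.6 in the knockout and 16.7, 25.03 and 14.2 in the wild type, which overlapped. A region inside GATA4 (11735964 to 11736929) had 6.69 ± 1.19 in knockout and 8.31 ± 1.02 in wild-type lists (SD, n = 3), the knockout wholly below. With each fold divided by its list's median over regions of all 6 lists, the knockout to wild-type ratio there was 1.05.

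SOX9, which specifies cartilage and the testis, was the open one of 4 SOX genes and had the lowest knockout to wild-type ratio among the factor regions of all 6 lists, 0.42. Its region over the lower-coordinate end, within 1 kb of SOX9-AS1 (chromosome 17, 72120084 to 72122220), had folds of 3.91, 8.52 and 5.33 in the knockout and 10.5, 18.0 and 13.8 in the wild type. All 3 knockout values of SOX9 were below the wild type, with a mean of 5.92 ± 2.36 against 14.1 ± 3.77 (SD, n = 3). SOX2, the factor of neural and pluripotent stem cells, was partly called, and SOX1 and SOX17 were closed.

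FOXC1 and FOXD3 were open, and FOXA1 and FOXA2, pioneer factors of endoderm, were closed. FOXC1, a factor of mesenchyme and the front of the eye, had a region over its start (chromosome 6, 1608479 to 1610897) with folds of 13.5, 13.4 and 12.3 in the knockout and 22.0, 29.4 and 21.8 in the wild type. A second FOXC1 region 4655 bp below the gene and within 1 kb of FOXCUT (1603953 to 1605260) had 6.39 ± 1.30 and 14.0 ± 5.33 (SD, n = 3). FOXD3, a neural crest factor, had its region 4501 bp below the gene and within 1 kb of LINC00466 (chromosome 1, 63316611 to 63318066), with folds of 16.6, 16.4 and 18.8 in the knockout and 22.0, 32.6 and 22.8 in the wild type. In these 3 forkhead regions the knockout lay wholly below the wild type.

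NEUROG2 and HAND1 were the open bHLH genes among 6. NEUROG2, which commits progenitors to neurons, had a region over its start (chromosome 4, 112514621 to 112518344) with folds of 9.63, 10.5 and 12.6 in the knockout and 21.8, 19.2 and 19.1 in the wild type. The NEUROG2 groups were far apart against their spread, 10.9 ± 1.54 and 20.02 ± 1.53 (SD, n = 3). HAND1, of the heart and placenta, had a region 8892 bp above the gene (chromosome 5, 154487119 to 154488252) with folds of 3.91, 6.56 and 5.89 in the knockout and 9.82, 7.29 and 9.01 in the wild type, also without overlap. NEUROG1 was partly called through a single knockout list, and HAND2, NEUROD1 and OLIG2 were closed.

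In the remaining homeobox families DLX1, DLX2, DLX6 and MSX1 were open. DLX genes pattern the forebrain and jaw and lie in pairs. DLX2 had 3 regions, each in all 6 lists, and the strongest, over its start (chromosome 2, 172101308 to 172104473), had folds of 15.6, 19.997 and 16.6 in the knockout and 19.2, 22.1 and 21.8 in the wild type. Between DLX1 and DLX2 a shared region (172094361 to 172095888) had 9.33, 8.20 and 10.1 in the knockout and 11.5, 13.1 and 9.01 in the wild type. Both of these DLX2 regions overlapped between genotypes, as did the third, 3135 bp above the gene, with 5.37 ± 1.26 and 6.27 ± 1.03 (SD, n = 3).

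DLX6, the other open DLX gene, had a region over its start and within 1 kb of DLX6-AS1 (chromosome 7, 97005160 to 97006373) with folds of 6.92, 7.87 and 5.89 in the knockout and 10.3, 10.2 and 10.3 in the wild type. Knockout values of DLX6 were all lower. MSX1, a factor of tooth and limb buds, had a region over its start (chromosome 4, 4859210 to 4860913) with folds of 9.93, 14.4 and 7.86 in the knockout and 10.5, 17.3 and 14.9 in the wild type, and these overlapped. EN1, EMX2 and DLX5 were partly called, and EN2 of the midbrain and hindbrain, OTX2 and EMX1 of the forebrain, and MSX2 were closed.

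Over the 25 factor regions of all 6 lists most folds were lower in the knockout. The mean knockout fold was below the mean wild-type fold at 23 of 25 (92%), against 81.1% of the regions of all 6 lists near a protein-coding gene. All 3 knockout values were below all 3 wild-type values at 14 of 25 (56%). The same held at 42.6% of the regions of all 6 lists near a protein-coding gene and at 43.9% of all 23589. They were above all 3 wild-type values at 0 of 25, against 2.63% near protein-coding genes and 2.81% of all. The median ratio of mean knockout to mean wild-type fold was 0.73 (log2 −0.46) at the factors and 0.79 (log2 −0.33) over regions of all 6 lists near any protein-coding gene. Folds are the authors' own values in each list, and no test was made between lists. When each fold was divided by the median that its list had over all regions of all 6 lists, the median log2 ratio of the factors was −0.085 and that near any protein-coding gene 0.052. On that scale the mean knockout fold was lower at 14 of 25 factor regions (56%), against 44.2% near protein-coding genes. The knockout was then wholly below at 5 factor regions (20%), against 13.7% near protein-coding genes and 15.1% genome-wide. It was wholly above at 2 (8%), against 21.8% near protein-coding genes and 21.3% genome-wide. The 5 lay at SOX9 (ratio 0.55), FOXC1 over its start (0.71), NEUROG2 (0.71), TBX20 (0.76, at 35215708) and LHX9 below the gene (0.87), and the 2 at LHX4 (1.40) and TBX1 (1.98). The TBX1 folds in wild-type replicates 1 and 3, 3.63 and 3.14, were near the lowest folds of those lists, 2.78 and 2.72. In knockout replicate 1 the folds of SOX9 and of HAND1 above the gene, both 3.91, were likewise near the lowest of that list, 3.31.

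**Figure D4:**
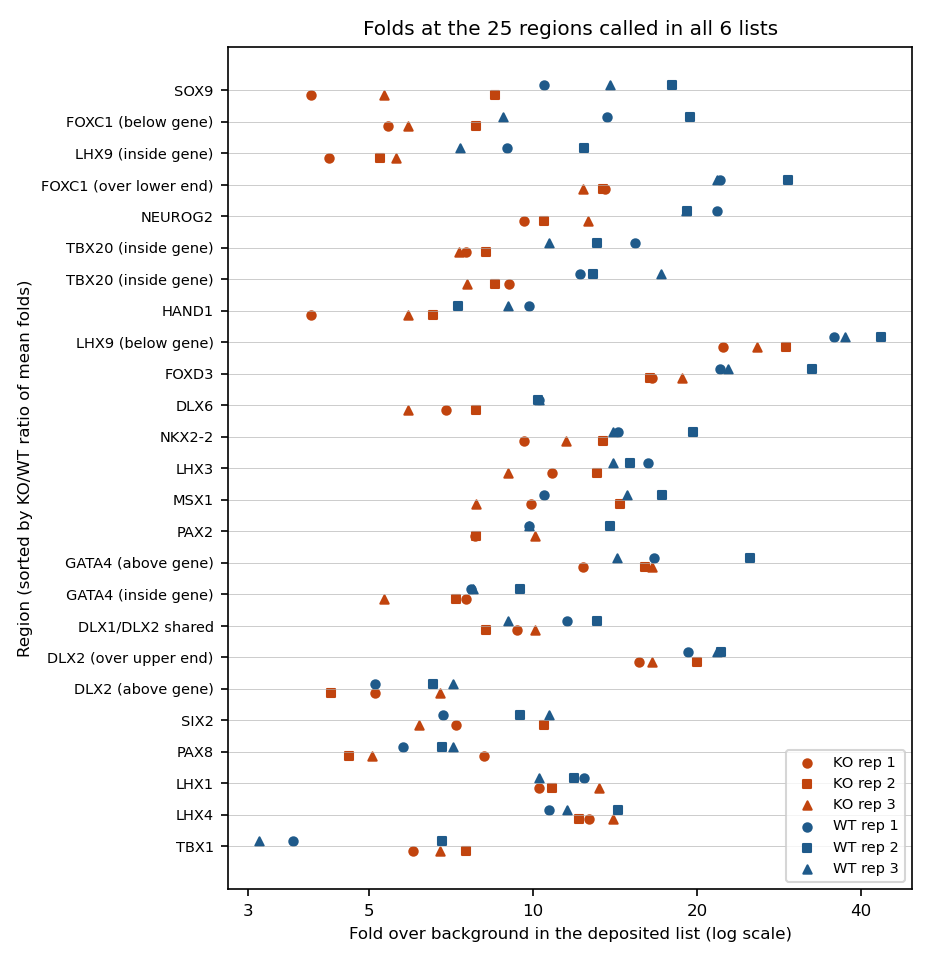
Fold over background (log scale) in each list at the 25 regions of all 6 lists, sorted from the lowest to the highest ratio of mean knockout (KO, orange) to mean wild-type (WT, blue) fold, with 1 marker shape per replicate. Orange lies left of blue without overlap at 14 regions, from SOX9 with a ratio of 0.42, and TBX1 at the bottom has a ratio of 1.49.

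Regions found in the wild type alone touched 7 factors. Of the 48 factor regions in all 3 wild-type lists 8 were in no knockout list (16.7%), against 14.2% of such regions within 10 kb of any protein-coding gene and 17.3% of all such regions, so the share is near the background. Conversely, of the 25 factor regions that every knockout list held, 0 were absent from all wild-type lists, against 0.302% near protein-coding genes and 0.39% of all such regions. At least 1 wild-type-only region was held by 7 of 57 factors, against 13.9% of all genes. Beside the upstream start of LHX9 they lay at LHX5, LHX4, NKX2-2, SIX3, HAND1 and EMX2, with a second one inside LHX9 (chromosome 1, 197928493 to 197929320). The LHX5 region lay over the lower-coordinate end of the gene (chromosome 12, 113461938 to 113462776), with wild-type folds of 5.98, 6.56 and 5.45. Inside LHX4 the region (chromosome 1, 180252238 to 180253205) had 5.34, 4.86 and 5.45, and 5379 bp below NKX2-2 (chromosome 20, 21505133 to 21505638) it had 4.70, 8.02 and 4.61. At LHX5 and LHX4 the wild-type lists lay close together, while at NKX2-2 replicate 2 stood above the other 2.

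SIX3 had its wild-type-only region 2283 bp below the gene and within 1 kb of SIX3-AS1 (chromosome 2, 44938627 to 44939419), with folds of 4.91, 7.29 and 3.56. HAND1 had one 3479 bp below the gene (chromosome 5, 154470735 to 154471493) with 6.19, 3.89 and 4.40. The EMX2 region, 4366 bp below this forebrain and kidney gene and within 1 kb of EMX2OS (chromosome 10, 117537717 to 117538380), had 3.42, 4.62 and 3.35. In all 8 regions the lowest wild-type fold was less than 2 times 3.31, the lowest fold in the list of knockout replicate 1. The share of all wild-type-only regions below that limit was not taken. The median of mean wild-type folds was 5.24 over the 8 and also 5.24 over the 3606 wild-type-only regions near protein-coding genes. With lists of equal length 1 region, that at LHX5, was wild-type-only, 3.23% of those in all wild-type lists against 7.24% genome-wide. Without knockout replicate 2 there were 13, or 27.1% against 22.4%. With a peak required to cover 50% of the merged region there were 15, or 34.1% against 28.6%, and with the flanks left out there were 4, or 18.2% against 17.3%.

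A larger part of the factor regions was in some but not all knockout lists. Beyond the 8, 9 of the 48 wild-type regions were in 1 knockout list (18.8%) and 6 in 2 (12.5%), against 9.31% and 10.3% of such regions near protein-coding genes. The other 25 of 48 were in all 3 knockout lists (52.1%), compared with 66.2% of such regions near protein-coding genes. The factor regions were also the weaker ones, with a median mean wild-type fold of 7.62 against 9.29 for all such regions near genes. What part this difference in strength has in the difference of shares was not tested. Of the 9 regions in 1 knockout list, 5 were in that of replicate 2, 3 in that of replicate 3 and 1 in that of replicate 1. The region with the highest wild-type fold among them all lay 6575 bp below HAND1 (chromosome 5, 154467279 to 154468397). It had 6.32 and 6.88 in knockout replicates 1 and 2, no peak in replicate 3, and 10.9, 14.1 and 10.7 in the wild type.

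**Figure D5:**
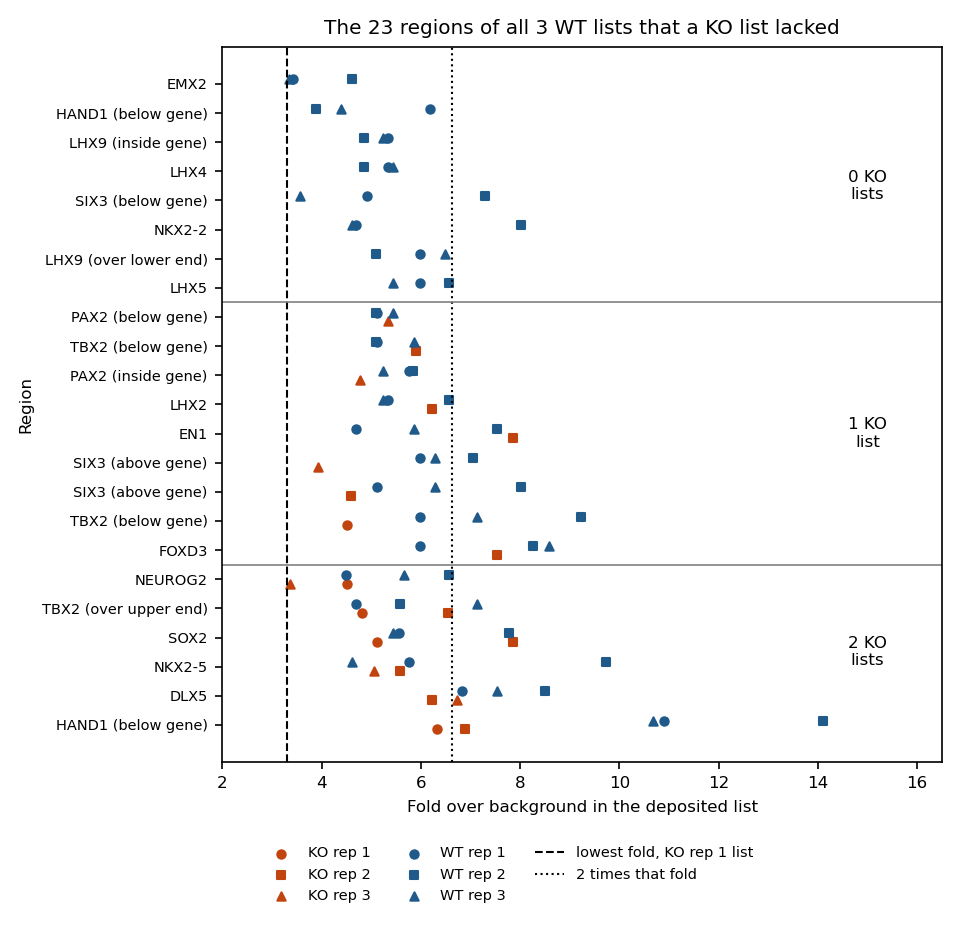
Fold over background at the 23 factor regions of all 3 wild-type (WT, blue) lists that at least 1 knockout (KO, orange) list lacked, grouped by how many knockout lists held them. The dashed line is the lowest fold in the list of knockout replicate 1, 3.31, and the dotted line is 2 times that. All 8 regions in 0 knockout lists have at least 1 wild-type value left of the dotted line, and the 3 wild-type values of HAND1 at the bottom lie right of it.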

How the data were processed

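ATAC-seq peak lists of 6 ARP1 libraries, 3 KDM6A knockout and 3 wild type grouped by title, were analysed. Trimmomatic, FastQC, MultiQC, Bowtie2 and MACS2 2.1.2 with GRCh38 are named in the submitters' processing notes. On their settings, the Tn5 offset and duplicates, nothing is given in the sources used here. Libraries were read as pairs of 150 bp, per the labels' protocols. Each deposited list, 1 per library, holds a fold (a ratio over background), a −log10 p-value, a −log10 q-value and a score equal to 10 times the last as a whole number. Below a fold of 100, 100% of deposited folds were whole multiples of 1 step (tolerance 0.01 of a step), which gave each library's background pileup.

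The mitochondrial peak was left out, peaks sharing 1 bp were merged, and where several peaks of a list fell in a region the highest fold was taken (Python 3.11.15, pandas 2.3.3). Genes and promoter windows came from RefSeq GRCh38.p14. A wild-type-only region was in each wild-type list and in 0 knockout lists. Results are counts and values without a test, since 3 against 3 libraries cannot go below an exact p of 0.1 and the members were chosen with earlier results of these data known, as were the lists and alternatives. Values in every list are given for each factor's regions of all 6 lists and wild-type-only regions, 1 per factor and kind by the highest mean wild-type fold. Further regions (second ones at LHX9, TBX20, GATA4, FOXC1 and DLX2, and those in part of the knockout lists) were chosen with their values known. Scripts were tested on simulated data. The CpG shares were added after seeing the data.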

Additional observations from a re-analysis of the deposited data

How the results depend on the processing

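Replicate numbers were shared between the genotypes, and a replicate block was added after seeing the data, with fold ratios taken within each number. It gave a median log2 ratio of −0.47, beside −0.46. Same-numbered libraries deviated from their group means with correlations of −0.021, 0.015 and −0.18 over 23589 regions of all 6 lists. No sample correlated best with its own number. The labels do not say whether same-numbered libraries were prepared together, and correlations from 3 libraries per genotype cannot settle it. Open, partly called and closed factors numbered 20, 14 and 23. At a −log10 q-value of at least 5, a fold of at least 4, equal list length, without regions near other coding genes and without any 1 library, no class count moved by more than 1.5 times, and no setting gave a knockout-only region. TBX1, SOX9 and HAND1 were no longer open at the stricter q-value or fold, nor TBX1 at equal list length, nor LHX1 and LHX3 without regions near other genes. With the gene body only 6 factors were partly called, 37 closed and 4 regions wild-type-only, and the lists held on average 17.3 (knockout) and 26.3 (wild type) regions. Flanks of 50 kb gave 37 open and 8 closed factors and means of 77 and 114. A peak covering 50% of the region gave 12 open and 22 partly called factors, 15 wild-type-only regions and means of 22 and 54.3, and the cause was not tested. Open in all 13 of these settings were 8 of 20: LHX4, LHX9, TBX20, GATA4, FOXC1, DLX2, DLX6 and MSX1.

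The wild-type mean of 55.7 regions per list became 50.7 at the stricter q-value, 50 at a fold of at least 4, 40.7 at equal list length and 50.7 without regions near other genes. Wild-type-only regions, 8 in all, were 1 at equal list length. The median log2 fold ratio of −0.46 became −0.085 relative to list medians. Leaving out 1 library at a time gave 8 to 13 wild-type-only regions, a wild-type mean of 55.5 to 56.5 and a median log2 ratio of −0.57 (without knockout replicate 2) to −0.30 (without wild-type replicate 2). The lowest fold was higher in each knockout list than in each wild-type list, and its part in absent calls was not tested.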

Other observations

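Closed factors lay about as far from the nearest region as closed genes in general, and by definition more than 10 kb. The distance from the gene to the nearest merged region had a median of 35.2 kb over the 23 closed factors, from 10.7 kb at NEUROD1 to 303 kb at TBX5, and of 33.9 kb over the 3044 closed protein-coding genes. It was above 50 kb at 8 of 23 (34.8%), against 36.3%. To the nearest region of all 6 lists the median was 105 kb, against 71.8 kb over all closed genes, with 703 kb at TBX3, a gene known for limb and heart development, and 554 kb at FOXA1. In the flanks from 10 kb to 500 kb on both sides the closed factors had a median of 17.3 regions per Mb, the partly called 16.3 and the open 29.6. Over all protein-coding genes the same medians were 20.4, 26.5 and 28.6.

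Short motifs of common promoter factors were searched on both strands of the 300-base windows. The ETS motif CCGGAAG was in 0 of 10 factor windows within a region of all 6 lists and in 20.1% of all such windows. GGGCGG, bound by SP1, was in 6 of those 10 windows and in 74.3% of all such windows. TATAAA was in 0 of the 10, against 4.52%, CCAAT in 5 of the 10, against 35.9%, and CACGTG in 1, against 10.4%. A match is a description of the letters in these windows only.

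TBX2 was the factor with the most regions, 6, and none of them was in all 6 lists. The TBX2 regions lay between 61389470 and 61417554 on chromosome 17, and TBX4, whose gene record begins at 61452422, was closed.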
